A study of Mus musculus with 6 samples.

Results

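The 10 neutrophil granule genes, *S100a8*, *S100a9*, *Ngp*, *Camp*, *Ltf*, *Lcn2*, *Retnlg*, *Mmp8*, *Mmp9* and *Chil3*, encode proteins of the granules or cytosol of neutrophils and were read here from muscle RNA-seq of *Tarsl2*+/+ and *Tarsl2*-/- mice. They were chosen by gene name, and all 10 were found among the 53084 genes of the count table. Of these, 5 (*S100a8*, *S100a9*, *Lcn2*, *Retnlg* and *Mmp9*) were among the 15075 genes with enough counts to be tested. *Ngp*, *Camp*, *Ltf*, *Mmp8* and *Chil3* were too low in too many mice. The study compared muscle of 3 *Tarsl2*+/+ mice (583, 584 and 595) with that of 3 *Tarsl2*-/- mice (588, 589 and 591), 1 library per mouse. All 6 were male C57BL/6 mice, 6 weeks old, on standard chow. The *Tarsl2*-/- mice carry a germline CRISPR/Cas9 deletion that includes exon 3 of *Tarsl2*, which encodes a threonyl-tRNA synthetase-like protein. Blood and bone marrow thus carry the deletion as well as muscle fibres. Neither the muscle dissected nor any perfusion or removal of blood was given in the sources used here.

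Neutrophils are short-lived white cells that mature in the bone marrow and leave it for the blood, and few of them reside in healthy muscle. During maturation their granules are made in an order: primary granules (*Mpo*, *Elane*) come first, then specific granules (*Ngp*, *Camp*, *Ltf*, *Lcn2*), then gelatinase granules (*Mmp9*). *S100a8* and *S100a9* encode the subunits of calprotectin, a calcium-binding and metal-binding protein that is abundant in the neutrophil cytosol. Several of these genes are also transcribed elsewhere, for example *Mmp9* in osteoclasts and macrophages, *Chil3* in macrophages and *Lcn2* in epithelium.

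Libraries held between 16176591 and 20123767 counts. A count of 3, taken here as the detection floor, corresponded to 0.146 to 0.187 CPM, the count relative to the size of its library after TMM scaling, which corrects that size by a trimmed mean of log ratios between libraries. The counts of *Tarsl2* itself were 456, 605 and 464 in *Tarsl2*+/+ and 40, 30 and 37 in *Tarsl2*-/- muscle. Its log2 fold change (*Tarsl2*-/- over *Tarsl2*+/+, as throughout) was -3.81, with an adjusted p of 6.45e-07 by edgeR. The sample records describe a retinal extraction, but 10 retinal markers summed to at most 1.21 CPM in any library, against at least 94805 CPM for 11 skeletal muscle markers. Of the *Tarsl2*+/+ libraries, 2 stood apart from the rest in blood or bone genes. Mouse 583 was high in lymphocyte genes, and mouse 595 in bone and red cell genes.

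The 2 calprotectin genes and the cathelicidin-related genes carried the largest differences between mice, and their promoters are shown for that reason. The sequences are from RefSeq (GRCm38.p6), 250 bases before to 30 after the annotated start site, 5′ to 3′ in the direction of transcription. They are chr3:90668821-90669100 on the plus strand for *S100a8*, chr3:90695692-90695971 on the minus strand for *S100a9*, chr9:110419558-110419837 on the plus strand for *Ngp*, and chr9:109849427-109849706 on the minus strand for *Camp*. Capitals mark matches to the letters TTNCNNNAA (a loose form of the C/EBP site) or AGGAAGT (PU.1) on either strand, or TATAAA on the transcribed direction.
S100a8: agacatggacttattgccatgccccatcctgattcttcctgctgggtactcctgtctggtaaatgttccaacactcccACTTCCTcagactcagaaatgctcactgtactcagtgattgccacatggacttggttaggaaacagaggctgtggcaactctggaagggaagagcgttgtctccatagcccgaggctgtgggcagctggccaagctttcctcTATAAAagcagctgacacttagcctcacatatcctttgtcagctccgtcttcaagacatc
S100a9: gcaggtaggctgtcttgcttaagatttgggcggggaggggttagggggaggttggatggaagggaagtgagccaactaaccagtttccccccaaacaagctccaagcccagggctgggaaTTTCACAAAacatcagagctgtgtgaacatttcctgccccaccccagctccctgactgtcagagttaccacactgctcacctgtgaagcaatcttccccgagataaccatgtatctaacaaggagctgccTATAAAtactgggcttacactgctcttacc
Ngp: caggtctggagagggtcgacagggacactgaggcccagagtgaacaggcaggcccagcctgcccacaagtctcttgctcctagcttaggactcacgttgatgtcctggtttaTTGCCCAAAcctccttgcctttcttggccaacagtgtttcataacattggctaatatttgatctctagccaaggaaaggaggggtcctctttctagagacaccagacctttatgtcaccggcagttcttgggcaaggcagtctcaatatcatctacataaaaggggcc
Camp: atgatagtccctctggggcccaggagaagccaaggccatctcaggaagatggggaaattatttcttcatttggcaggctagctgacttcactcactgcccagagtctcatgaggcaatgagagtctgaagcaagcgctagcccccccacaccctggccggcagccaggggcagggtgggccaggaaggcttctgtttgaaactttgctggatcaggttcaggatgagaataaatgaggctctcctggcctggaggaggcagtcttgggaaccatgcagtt
*S100a8* held a PU.1 match beginning at -172, read on the opposite strand, and a TATAAA at -30. *S100a9* held a C/EBP match at -130 and a TATAAA beginning at the annotated start base, and *Ngp* held a C/EBP match at -138. *Camp* held none of these letters. Promoters of 9 members were in the RefSeq table. The C/EBP letters occurred in 4 of these 9 and in 36.6% of all 32851 promoters of this length, the PU.1 letters in 3 of 9 and in 9.35%, and TATAAA in 3 of 9 and in 8.32%. These are matches of letters in the 300 bases of each table entry, 20 more than printed here, and not measured binding sites.

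*S100a8* and *S100a9*, which lie close together on chromosome 3 (GRCm38, 90668978 to 90670035 on the plus strand and 90692632 to 90695721 on the minus strand), had the largest spread between mice of all tested members. *S100a8* (ENSMUSG00000056054) had 592, 7 and 129 counts in *Tarsl2*+/+ mice 583, 584 and 595, and 20, 16 and 32 in *Tarsl2*-/- mice 588, 589 and 591. Mouse 583 was the highest and mouse 584 the lowest of all 6, so that the *Tarsl2*-/- mice fell inside the *Tarsl2*+/+ range. In CPM, *Tarsl2*+/+ muscle had 13.9 ± 18.2 and *Tarsl2*-/- muscle 1.22 ± 0.294 (SD, n = 3 each). *S100a9* (ENSMUSG00000056071) had 411, 15 and 84 counts in the *Tarsl2*+/+ mice, against 15, 12 and 19 in the *Tarsl2*-/- mice, or 9.74 ± 12.5 and 0.836 ± 0.0874 CPM (SD, n = 3 each). Mice 583 and 595 were again above all others, and mouse 584 lay within the *Tarsl2*-/- range. In both genes the SD in *Tarsl2*+/+ muscle was larger than the mean.

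The log2 fold change of *S100a8* was -3.47 (standard error 1.03, unadjusted p = 0.00607, adjusted p = 0.0985 by the edgeR quasi-likelihood test, with p-values adjusted over all tested genes after Benjamini and Hochberg). For *S100a9* it was -3.51 (standard error 0.95, adjusted p = 0.0772 by the same edgeR test). Neither passed the threshold of 0.05, although the means differed by 11.4 and 11.7 times. The exact two-sided permutation test gave p = 0.4 for *S100a8* and p = 0.3 for *S100a9*, and 3 mice against 3 allow no p below 0.1. In bulk tissue, fewer neutrophils and less of these RNAs per neutrophil cannot be told apart.

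**Figure D1:**
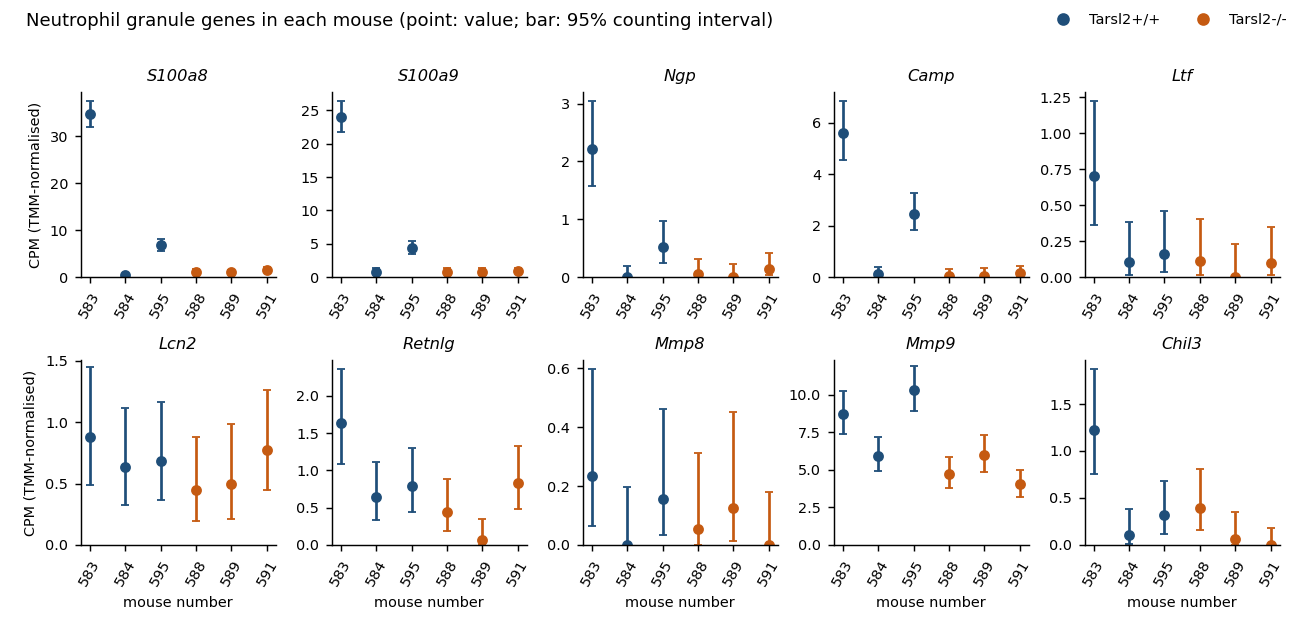
CPM of each of the 10 genes (vertical axes, each with its own scale) in each mouse (horizontal axes), with 95% Poisson intervals for counting error as bars. Mouse 583 is highest in 9 panels and mouse 595 in that of *Mmp9*, while mouse 584 lies with the *Tarsl2*-/- mice for *S100a8*, *S100a9*, *Ngp* and *Camp*.

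Among the specific granule genes, *Camp* (ENSMUSG00000038357), which encodes the antimicrobial peptide precursor cathelicidin, had 96, 2 and 47 counts in the *Tarsl2*+/+ mice, against 1, 1 and 3 in the *Tarsl2*-/- mice. Mice 583 and 595 stood above the other 4, of which none had more than 3 counts. *Ngp* (ENSMUSG00000032484), a cathelicidin-related granule protein, had 38, 0 and 10 counts in the *Tarsl2*+/+ mice, against 1, 0 and 3 in the *Tarsl2*-/- mice. Its order was the same at the top, and the 0 counts of mouse 584 had a 95% Poisson upper limit of 0.196 CPM. The mean levels were 2.73 ± 2.76 against 0.0880 ± 0.0502 CPM for *Camp*, and 0.916 ± 1.16 against 0.0672 ± 0.0736 CPM for *Ngp* (SD, n = 3 each). The *Tarsl2*-/- means of both were under the floor. Summed over the mice of each genotype, the ratio of *Tarsl2*+/+ to *Tarsl2*-/- was 28.8 for *Camp* (95% counting interval 12.1 to 89.9) and 11.9 for *Ngp* (4.36 to 45.5). Such intervals cover counting error only, not the spread between mice, and exact permutation tests over the mice gave p = 0.2 for *Camp* and p = 0.4 for *Ngp*.

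*Ltf* (ENSMUSG00000032496), encoding the iron-binding protein lactotransferrin, had 12, 2 and 3 counts in the *Tarsl2*+/+ mice, against 2, 0 and 2 in the *Tarsl2*-/- mice. Mouse 583 alone was above the floor. *Camp*, *Ngp* and *Ltf* all lie on chromosome 9, between 109847379 and 111042767. *Lcn2* (ENSMUSG00000026822, chromosome 2, 32384633 to 32388252), which binds bacterial siderophores, had 15, 12 and 13 counts in the *Tarsl2*+/+ mice, against 8, 8 and 16 in the *Tarsl2*-/- mice. The *Tarsl2*+/+ mice lay close together and the *Tarsl2*-/- mouse 591 exceeded 2 of them after scaling. The log2 fold change of *Lcn2* was -0.32 (standard error 0.38, adjusted p = 0.688 by edgeR). *Chil3* (ENSMUSG00000040809, chromosome 3, 106147554 to 106167564), a chitinase-like lectin, had 21, 2 and 6 counts against 7, 1 and 0, and *Tarsl2*-/- mouse 588 was second only to mouse 583. Exact permutation tests gave p = 0.2 for *Ltf*, 0.3 for *Lcn2* and 0.4 for *Chil3*.

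Of the remaining genes, *Mmp9* (ENSMUSG00000017737, chromosome 2, 164940780 to 164955850), a secreted gelatinase, had the most counts of the 10 genes in 5 of the 6 mice. It had 149, 112 and 197 counts in the *Tarsl2*+/+ mice, against 85, 96 and 83 in the *Tarsl2*-/- mice. Here mouse 595 was highest and the spread was small, with mouse 584 at 5.95 CPM just under *Tarsl2*-/- mouse 589 at 5.99 CPM, the only overlap between genotypes. The level was 8.33 ± 2.22 CPM in *Tarsl2*+/+ and 4.92 ± 0.990 CPM in *Tarsl2*-/- muscle (SD, n = 3 each), a log2 fold change of -0.77 (standard error 0.22, unadjusted p = 0.00451, adjusted p = 0.0860 by edgeR). *Mmp9* was the only member past the threshold by DESeq2 (adjusted p = 0.0298), which called 4.77% of all tested genes in either direction and 2.71% lower in *Tarsl2*-/- muscle.

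*Retnlg* (ENSMUSG00000022651), encoding the secreted resistin-like molecule gamma, had 28, 12 and 15 counts in the *Tarsl2*+/+ mice, against 8, 1 and 17 in the *Tarsl2*-/- mice. Its spread, like that of *Lcn2*, was wider among *Tarsl2*-/- mice, where mouse 591 was 13.2 times mouse 589 (95% counting interval 2.08 to 554). Its log2 fold change was -1.10 (standard error 0.59, adjusted p = 0.334 by edgeR). *Mmp8* (ENSMUSG00000005800), the neutrophil collagenase, was near the floor throughout, with 4, 0 and 3 counts in the *Tarsl2*+/+ mice, against 1, 2 and 0 in the *Tarsl2*-/- mice. At this depth no difference in *Mmp8* was detectable, since the ratio of the summed counts was 2.32 with a counting interval of 0.529 to 13.9.

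The mean was higher in *Tarsl2*+/+ muscle for all 10 genes, which share the same mice, but the genotypes overlapped for all 10. Among all tested genes the genotypes did not overlap for 24.6%. None of the 5 tested members passed the threshold, against 2.27% of all 15075 tested genes in either direction and 1.37% lower in *Tarsl2*-/- muscle. At an unadjusted p under 0.05 there were 3 of 5 (*S100a8*, *S100a9* and *Mmp9*), against 19.8% of all tested genes. Other fits called up to 5 members, with more calls over all genes as well. Testing every gene with at least 1 count called *S100a8*, *S100a9*, *Ngp*, *Camp* and *Mmp9* lower in *Tarsl2*-/- muscle, in a fit that took the spread of each gene from the trend over all genes and put 5.62% of all genes past the threshold, 3.23% lower in *Tarsl2*-/- muscle.

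The counts differed in how far 1 mouse decided them. Mouse 583 held 81.3% of the *Tarsl2*+/+ counts of *S100a8*, 80.6% of *S100a9*, 79.2% of *Ngp*, 72.4% of *Chil3*, 70.6% of *Ltf* and 66.2% of *Camp*. It held 57.1% for *Mmp8*, 50.9% for *Retnlg*, 37.5% for *Lcn2* and 32.5% for *Mmp9*, the last 2 close to an even split. Mouse 584 was the lowest *Tarsl2*+/+ mouse for all 10 genes.

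The ratio of mouse 583 to mouse 584 was 93.1 for *S100a8* (95% counting interval 44.9 to 232), 52.8 for *Camp* (14.2 to 442) and 30.2 for *S100a9* (18.1 to 54.4). It was 11.6 for *Chil3* (2.82 to 102), 6.60 for *Ltf* (1.47 to 60.7), 2.57 for *Retnlg* (1.26 to 5.54) and 1.46 for *Mmp9* (1.14 to 1.89). These intervals lay above equality, whereas that of *Lcn2* (ratio 1.38, 0.601 to 3.22) did not. Between mice 583 and 595 the ratios were unequal across members, at 5.11 for *S100a8* (4.22 to 6.23), 5.45 for *S100a9* (4.30 to 6.98), 2.27 for *Camp* (1.59 to 3.30) and 0.842 for *Mmp9* (0.676 to 1.05). Mouse 595 held relatively more *Camp* for its *S100a8*, since *Camp* was 26.7% of the counts of both genes there (20.3% to 33.9%) and 13.95% in mouse 583 (11.5% to 16.8%).

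The counting intervals for *S100a8* in mouse 584 do not allow for picking the lowest of the 6 mice. Within that limit, *S100a8* in mouse 584 was below each *Tarsl2*-/- mouse beyond counting error. It was 0.334 times mouse 588 (0.119 to 0.821), 0.373 times mouse 589 (0.130 to 0.957) and 0.239 times mouse 591 (0.0891 to 0.552). For *S100a9* the corresponding ratios were 0.953 (0.434 to 2.09), 1.06 (0.465 to 2.49) and 0.863 (0.408 to 1.79), and the depth could not separate them. The share of *S100a8* among the counts of both calprotectin genes was 59.0% in mouse 583, 60.6% in mouse 595 and between 57.1% and 62.7% in the *Tarsl2*-/- mice. Mouse 584 had 31.8% from 22 counts (95% Clopper-Pearson interval 13.9% to 54.9%), the lowest of the 6.

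**Figure D2:**
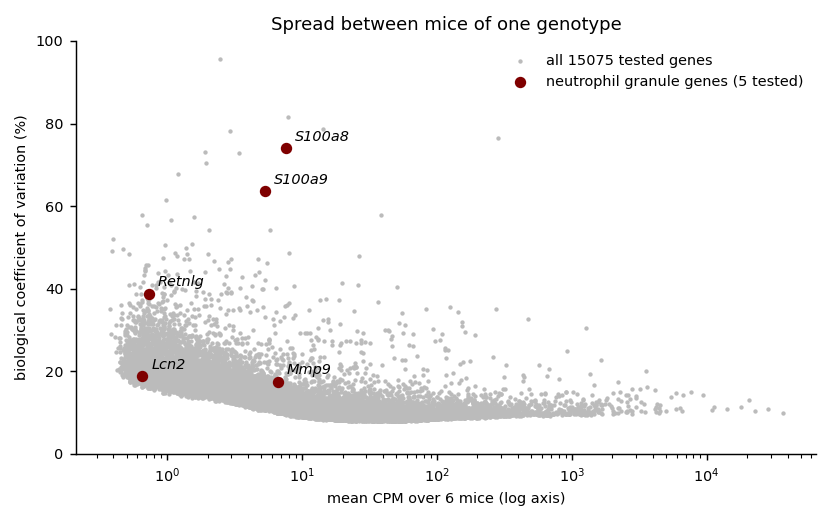
Biological coefficient of variation estimated by edgeR (vertical axis, %) against mean CPM over the 6 mice (horizontal axis, log scale), with 1 point per tested gene. *S100a8* at 73.9% and *S100a9* at 63.7% lie far above the median of 11.6%, and *Mmp9* at 17.4% lies near the bulk of genes.

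The biological coefficient of variation, the spread between mice of 1 genotype beyond counting error, was 73.9% for *S100a8* and 63.7% for *S100a9*. These ranked 6 and 11 among the 15075 tested genes, whose median was 11.6% and 95th percentile 25.4%. *Retnlg* had 38.8% (rank 98), *Lcn2* 18.8% and *Mmp9* 17.4%. The spread of the calprotectin genes lay in 1 genotype. The SD of log2 CPM among *Tarsl2*+/+ mice was 3.12 for *S100a8*, the highest of all tested genes, and 2.37 for *S100a9*. Among *Tarsl2*-/- mice it was 0.31 and 0.13, at percentiles 80.4 and 42.5 of the tested genes. As CV of the CPM, *S100a8* had 131% against 24.0% and *S100a9* 128% against 10.5%.

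**Figure D3:**
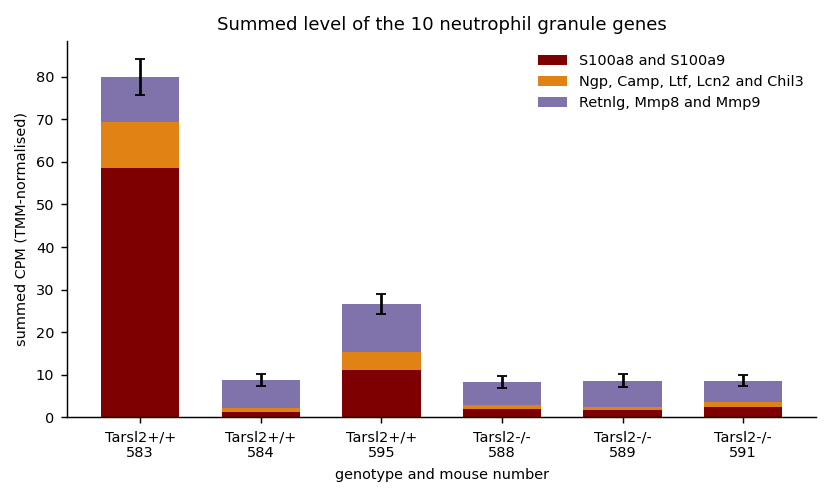
Summed CPM of the 10 genes in each mouse (bar height), divided into calprotectin, *Ngp*, *Camp*, *Ltf*, *Lcn2* and *Chil3*, and *Retnlg*, *Mmp8* and *Mmp9*, with 95% Poisson intervals of the total as error bars. Mouse 583 reaches 79.9 CPM and mouse 595 26.6 CPM, while mouse 584 (8.71 CPM) stands just above the *Tarsl2*-/- mice (8.25 to 8.55 CPM).

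Summed over the 10 genes, the *Tarsl2*+/+ mice 583, 584 and 595 had 79.9, 8.71 and 26.6 CPM, and the *Tarsl2*-/- mice 588, 589 and 591 had 8.25, 8.55 and 8.50 CPM. The *Tarsl2*-/- mice had overlapping counting intervals, and mouse 584 was 1.02 to 1.06 times each of them. The mean was 38.4 ± 37.0 CPM in *Tarsl2*+/+ and 8.43 ± 0.160 CPM in *Tarsl2*-/- muscle (SD, n = 3 each). Without mouse 583 the *Tarsl2*+/+ mean was 17.7 CPM. The narrow *Tarsl2*-/- range did not hold without *Mmp9*, where mice 588, 589 and 591 had 3.51, 2.56 and 4.47 CPM. Mice 583, 584 and 595 then had 71.1, 2.76 and 16.3 CPM. The makeup of the sum of all 10 genes changed with its size. Calprotectin genes made up 73.4% of the counts in mouse 583, 42.0% in mouse 595, 13.4% in mouse 584 and 20.4% to 29.1% in the *Tarsl2*-/- mice. *Mmp9* made up 10.9%, 38.9% and 68.3% in mice 583, 595 and 584, and 47.4% to 70.1% in the *Tarsl2*-/- mice. In the 4 low mice *Mmp9* was the largest single component. By group, the calprotectin genes spanned 1.17 to 58.6 CPM among *Tarsl2*+/+ mice, the sum of *Ngp*, *Camp*, *Ltf*, *Lcn2* and *Chil3* 0.956 to 10.6 CPM, and the sum of *Retnlg*, *Mmp8* and *Mmp9* 6.59 to 11.3 CPM. Among *Tarsl2*-/- mice the same sums were 1.75 to 2.48, 0.624 to 1.17 and 4.86 to 6.17 CPM. Per kilobase of the table's gene length, which allows levels of different genes to be compared, *S100a8* had the highest level of the 10 in 4 mice and *Mmp9* in the other 2 (584 and 589). *S100a8* ranged from 0.536 CPM per kb in mouse 584 to 49.9 in mouse 583, *S100a9* from 1.43 to 46.0, *Camp* from 0.0735 to 7.40 and *Mmp9* from 1.14 to 2.92.

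**Figure D4:**
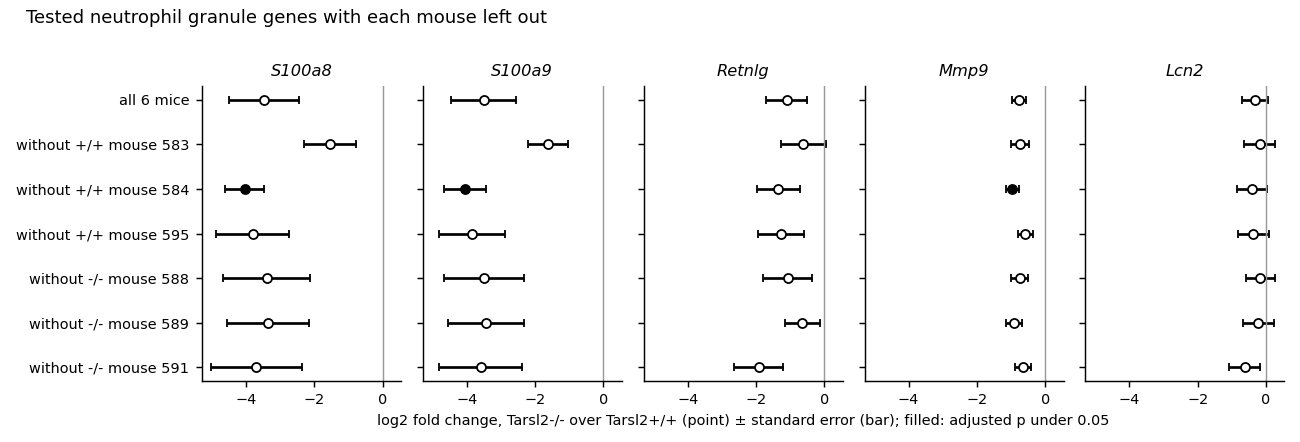
Log2 fold change (*Tarsl2*-/- over *Tarsl2*+/+, points, with standard errors as bars) of the 5 tested genes with all 6 mice and with each mouse left out (rows), filled where the edgeR adjusted p was under 0.05. *S100a8*, *S100a9* and *Mmp9* pass only without mouse 584, and the calprotectin genes move to -1.53 and -1.63 without mouse 583.

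Leaving out each mouse in turn changed the calls of members for mouse 584 only. Without *Tarsl2*+/+ mouse 584, the log2 fold changes of *S100a8* (-4.04, adjusted p = 0.00761), *S100a9* (-4.06, adjusted p = 0.00916) and *Mmp9* (-0.96, adjusted p = 0.0235) passed the edgeR threshold. Over all genes in that fit, 4.06% were past the threshold and 2.49% were lower in *Tarsl2*-/- muscle. *Camp* entered that fit only through mice 583 and 595, in which it was high, and its value there (-5.36) is given as a description. Without mouse 583 the values were -1.53 for *S100a8* (adjusted p = 0.396) and -1.63 for *S100a9* (adjusted p = 0.244). Without both 583 and 595, an alternative chosen after the data were seen, the *Tarsl2*-/- mice alone supplied the spread and mouse 584 alone stood for its genotype. Since the 2 mice left out were the highest for the calprotectin genes, the direction in that fit follows from the choice and the values describe mouse 584 only. They were 1.71 for *S100a8*, 0.07 for *S100a9*, -0.14 for *Lcn2*, -0.46 for *Retnlg* and -0.29 for *Mmp9*.

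Other neutrophil genes were read from lists written by hand. Of 38 such genes, 17 were tested, 3 were lower and 1 was higher in *Tarsl2*-/- muscle by edgeR. *Lyz2*, encoding lysozyme of macrophages and neutrophils alike, changed by a log2 fold change of -0.89 (adjusted p = 0.00400), *Il1r2*, a decoy receptor for interleukin 1, -1.99 (adjusted p = 0.00400) and *Ncf4*, an NADPH oxidase subunit, -0.65 (adjusted p = 0.0439). *Wfdc21* was higher, at 1.03 (adjusted p = 0.0352). *Il1r2* was not raised in mouse 583, with 63, 84 and 66 counts in the *Tarsl2*+/+ mice, against 23, 12 and 18 in the *Tarsl2*-/- mice. *Csf3r*, the receptor for granulocyte colony-stimulating factor, had 27, 4 and 27 against 5, 3 and 14. It was low in mouse 584 as the calprotectin genes were, and did not pass the test (adjusted p = 0.266 by edgeR). The surface markers that define mature neutrophils were at or near 0, with 2 counts of *Ly6g* in mouse 583 and 0 in the other 5, and at most 3 counts of *Cxcr2* in any mouse. The primary granule genes showed no peak in mouse 583. *Mpo* had 5, 4 and 10 counts against 3, 8 and 7, and *Elane* 3, 3 and 5 against 7, 7 and 6. Of the 7 genes listed by hand for primary granules, 3 were tested and none passed by edgeR, with a median log2 fold change of -0.43. The 3 were *Prtn3* (-0.59, unadjusted p = 0.240 by edgeR), *Igsf6* (-0.43, unadjusted p = 0.0128) and *Srgn* (-0.40, unadjusted p = 0.00389). Thus the 2 at an unadjusted p under 0.05 were *Igsf6* and *Srgn*, and *Prtn3* was not among them.

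Genes that act on or with the members were read in the same way. None of the 5 tested factors of granulocyte development passed (3 at an unadjusted p under 0.05 by edgeR), none of the 5 tested chemokines and their receptors (1), and none of the 6 tested receptors and partners (2), among them the calprotectin receptor *Tlr4* (log2 fold change -0.06, adjusted p = 0.840 by edgeR). Among 13 tested metalloproteinases and inhibitors, *Timp2* (-0.48) and *Mmp23* (-0.57) were lower in *Tarsl2*-/- muscle, each with an adjusted p of 0.0174 by edgeR. *Timp1*, the inhibitor that binds the Mmp9 protein, had -0.77 (adjusted p = 0.0578 by edgeR), and *Mmp2*, the other gelatinase, had 0.02. None of the 8 tested other S100 genes passed (5 at an unadjusted p under 0.05), with a median of -0.23. Of the paralogs of *Chil3* and *Retnlg*, 3 of 9 were tested, with a median of 0.67, and none passed by edgeR (2 at an unadjusted p under 0.05), among them *Retn*, encoding the hormone resistin (0.67, adjusted p = 0.228), and *Retnla* in the opposite direction (-0.44, adjusted p = 0.0846). Over all tested genes the median log2 fold change was 0.00.

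**Figure D5:**
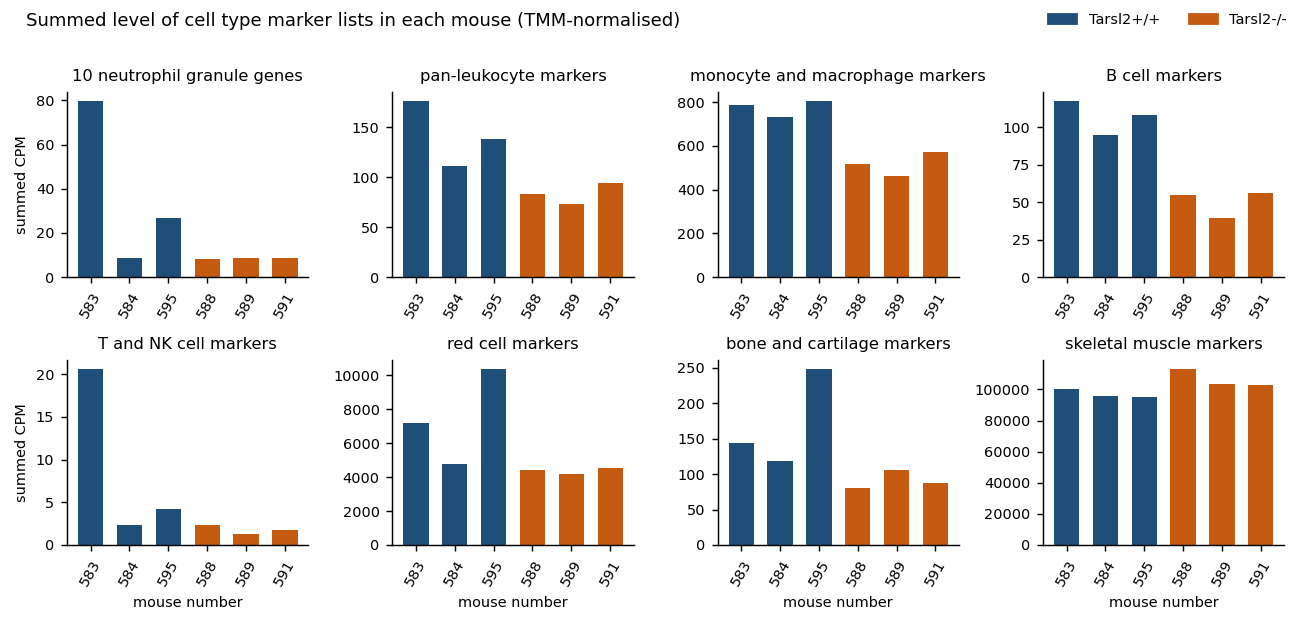
Summed CPM of the 10 genes and of 7 marker lists (vertical axes, each with its own scale, starting at 0) in each mouse (horizontal axes). Mouse 583 is highest for the neutrophil genes and, at 20.6 CPM, for T and NK cell markers, and mouse 595 for bone and cartilage markers (249 CPM) and red cell markers (10395 CPM).

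Some lists of markers of other blood and bone cells were high in the same mice as the members, and others were not. The 9 T and NK cell markers summed to 20.6, 2.28 and 4.20 CPM in *Tarsl2*+/+ mice 583, 584 and 595, and 1.31 to 2.29 CPM in the *Tarsl2*-/- mice. Of these, *Cd3g* had 114, 2 and 14 counts against 6, 2 and 5, with its peak in mouse 583, while *Cd3e* had 18, 17 and 17 against 11, 7 and 3. The 10 B cell markers summed to 94.9 to 118 CPM in *Tarsl2*+/+ and 39.3 to 56.1 CPM in *Tarsl2*-/- mice, and *Cd79a* within them had 73, 1 and 22 counts against 6, 2 and 5. *Ighm*, which made up most of that sum, had no such peak, with 1450, 1725 and 1877 counts against 910, 599 and 1077. Of 4 tested B cell markers, *Ighm* alone was lower in *Tarsl2*-/- muscle by edgeR, and of 2 tested T and NK markers none was (1 at an unadjusted p under 0.05).

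The 6 pan-leukocyte markers summed to 111 to 176 CPM against 73.0 to 94.0 CPM, with *Laptm5* and *Cd53* lower in *Tarsl2*-/- muscle. The 12 monocyte and macrophage markers did so without the peak in mouse 583, at 732 to 806 CPM against 462 to 572 CPM, and 6 of them (*Csf1r*, *Adgre1*, *C1qa*, *C1qb*, *C1qc* and *Ms4a7*) were lower in *Tarsl2*-/- muscle by edgeR. The red cell markers summed to 7217, 4749 and 10395 CPM in the *Tarsl2*+/+ mice and 4167 to 4537 CPM in the *Tarsl2*-/- mice, and none of 7 tested passed (6 at an unadjusted p under 0.05 by edgeR). The 10 bone and cartilage markers summed to 144, 119 and 249 CPM against 81.0 to 106 CPM, with 1 of 7 tested (*Ctsk*) lower in *Tarsl2*-/- muscle. *Bglap*, the osteoblast gene for osteocalcin, had 178, 68 and 1287 counts against 15, 2 and 74, and was highest where *Mmp9* was highest. *Acp5* of the same list was not, with 491, 681 and 489 counts against 291, 775 and 335, and its highest level was in *Tarsl2*-/- mouse 589. Platelet markers, lowest in mouse 583 among the *Tarsl2*+/+ mice, summed to 116 to 136 CPM against 89.6 to 109 CPM and eosinophil and mast cell markers to 130 to 160 CPM against 109 to 137 CPM, with none called of 3 and 4 tested (2 and 1 at an unadjusted p under 0.05 by edgeR). Skeletal muscle markers summed to 94805 to 100006 CPM against 102939 to 113357 CPM, with *Ckm*, *Myh1* and *Des* higher in *Tarsl2*-/- muscle, and none of 8 proliferation markers passed (2 at an unadjusted p under 0.05). The part of blood, marrow or bone in the levels of the 10 genes was not tested.

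The genes whose log2 CPM tracked the summed level of the 10 most closely over the 6 mice were *Lifr* (Pearson r = 0.991), *Timd4* (0.980), *Cdkn2aipnl*, *Gfra2*, *Tango6*, *Prim1*, *Psmd10*, *Snx14*, *Nek3* and *Dok3* (0.969). They came from 13573 candidates with a mean of at least 1 CPM, of which 129 had an r above 0.9 and 190 an r under -0.9 with only 6 mice. All points share the same 2 high mice, and the ratio of mouse 583 to mouse 584 in these genes was only 1.12 (*Tango6*) to 1.87 (*Timd4*), against 9.17 for the sum of the 10. By rank, only *Timd4* among them had a Spearman rho of 1, a value that 24 candidates reached.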

How the data were processed

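RNA of muscle from 6 mice was sequenced, and the authors deposited counts of reads per gene without normalization, with a gene length in bases. Per the methods, stranded poly(A) libraries were mapped to mm10 (GRCm38) with HISAT2. The submitters' processing notes list Bowtie 0.12.2 and mm8, but 95.2% of the 52403 identifiers found in GENCODE vM21 have identical GRCm38 coordinates. The counting tool and strand setting were not given in the sources used here. None of the 10 genes overlaps another gene in vM21.

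Genotypes came from the sample records. The labels do not say whether the mice were littermates. The members and gene lists were chosen with earlier results of these data known. All members were named, and of each list the genes past the threshold or up to 4 others. *Il1r2*, *Csf3r*, *Ly6g*, *Cxcr2*, *Mpo*, *Elane*, *Cd3g*, *Cd3e*, *Cd79a*, *Bglap*, *Acp5*, *Retn* and *Retnla* were described with their values known. The genes most like the members were the 10 with the highest Pearson r of log2 CPM (prior count 2). Some lists share genes (*Csf3r*, *Cxcl2*, *Cxcr2*). Some results for single genes of the lists are left out.

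Genes were kept by filterByExpr (minimum count 10, minimum total 15), scaled by TMM and tested over all 15075 genes with edgeR 4.0.16 (glmQLFTest, R 4.3.3) at a Benjamini-Hochberg threshold of 0.05. Standard errors were the absolute log2 fold change over the root of F. Intervals (95%, Poisson or Clopper-Pearson) cover counting error only, since reads carried no molecular identifiers. The fit was checked on data simulated with the same spread for every gene, which does not cover the wider spread of *S100a8*, *S100a9* and *Retnlg*. Alternatives were RLE and upper quartile scaling, other filters, DESeq2 1.42.0, limma-voom 3.58.1, robust estimation and each mouse left out. No libraries of one genotype were duplicates (chi-square per gene at least 13.0).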

Additional observations from a re-analysis of the deposited data

How the results depend on the processing

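None of the 5 tested members passed under edgeR with RLE or upper quartile scaling, at least 10 counts in every library (which left *S100a9* and *Mmp9*), limma-voom or robust estimation. DESeq2 called 1 member (*Mmp9*, while the adjusted p of *Lcn2* was not available) and testing all genes with at least 1 count called 5. With each mouse left out the count of members was 0 to 4, with 4 without mouse 584. Of 67 alternative log2 fold changes of the 5 tested members, 65 kept their direction and 7 were past the threshold. Those of *S100a8* (1.71) and *S100a9* (0.0715) had the opposite sign without both mice 583 and 595, an alternative chosen after seeing the data that leaves out the highest mice and so sets the direction; the value of *S100a9* is near 0 (standard error 0.54). *S100a8* was -1.79 and *S100a9* -2.29 by limma-voom. Over all genes, 342 differed, against 1437 with at least 1 count, 719 by DESeq2, 544 with robust estimation and 10 without both mice 583 and 595. Leaving out each mouse gave 81 (without mouse 583) to 625 genes (without mouse 584), with 96 without mouse 595, 187 without mouse 588, 126 without mouse 589 and 142 without mouse 591. The cause was not tested, except that fewer mice entered these fits and that the fit to all genes took spread from the trend. The mean summed CPM was 38.4 to 38.8 in *Tarsl2*+/+ and 8.37 to 8.43 in *Tarsl2*-/- muscle over the scalings, and 17.7 (without mouse 583) to 53.2 (without mouse 584) and 8.38 to 8.52 with each mouse left out. Of the 10 genes most like the sum, 1 was at the highest rank correlation. *Ngp*, *Camp*, *Ltf*, *Mmp8* and *Chil3* had too few counts for the main test, and depth limits what can be said of them. No paired analysis was possible because no mouse number occurs in both genotypes.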
